A study of Brassica rapa subsp. pekinensis with 6 samples.

Results

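Gibberellins and cytokinins are plant hormones of growth. Gibberellin is made from ent-kaurene by a chain of oxidases, is inactivated by gibberellin 2-beta-dioxygenases, and acts by binding GID1 receptors, which brings about the destruction of the growth-restraining DELLA proteins. Cytokinin is made by isopentenyltransferases, is released in its active form by LOG enzymes and is broken down by cytokinin dehydrogenases (CKX). Its signal passes from histidine kinase receptors through phosphotransfer proteins to response regulators, of which the type-B members are transcription factors and the type-A members dampen the signal. In leaves both hormones promote growth, and cytokinin is known for delaying senescence.

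The genes described here are the rows of the authors' deposited table whose protein description names gibberellin, DELLA, ent-kaurene, cytokinin, an ARR response regulator, an adenylate isopentenyltransferase, the receptor histidine kinases 2, 3 or 4 or a histidine-containing phosphotransfer protein. There were 46 such genes among 13225 listed, 17 of gibberellin and 29 of cytokinin. They had 36 different best protein names, taken from Arabidopsis proteins for 44 genes, so that a name gives the closest known protein and not a tested function in cabbage. The members went by words of their description and not by their values.

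Messenger RNA had been sequenced from leaves of 2 kinds of Chinese cabbage (Brassica rapa subsp. pekinensis), both derived from the doubled haploid line FT and grown alike. Doubled haploid plants carry a haploid genome that has been doubled, and autotetraploid plants carry the genome of the same line in a further doubled state. Fully grown leaves had been taken at bolting from the main stem, beneath its first branch, with 3 libraries for each kind of plant, which the submitters call biological replicates. Both kinds come from a single inbred line, and the labels give neither plants per library nor separate tetraploid lines.

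The authors' deposited table gives each gene 1 mean normalised read count per group, a log2 fold change and an adjusted p, and it holds only genes with an adjusted p under 0.05. All members had therefore passed the authors' test, as had 37.8% of the 34980 genes tested, and members of the same families that did not pass were not analysed here. For weakly expressed genes the reads of single libraries could be worked back from the group means, which are sums of whole reads divided by size factors of 0.917 to 1.12. The libraries obtained in this way carry no replicate number, and those of means from 300 to 1000 rest on a weaker check of the steps of 1 read. In a leaf of mixed cells, fewer cells of a type and less RNA per cell cannot be told apart, and counts were normalised between libraries, so that higher and lower are relative to other genes. Leaf identity was checked on genes of the Rubisco small chain, Rubisco activase and chlorophyll-binding proteins, of which 33 of 38 listed rose, and which summed to 792700 in doubled haploid and 1298000 in autotetraploid leaves per the authors' deposited table.

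Genes for the breakdown of both hormones were lower in autotetraploid leaves. All 5 gibberellin 2-beta-dioxygenase genes and all 6 cytokinin dehydrogenase genes fell, against 50% of all listed genes per the authors' deposited table. Among the genes of cytokinin signalling, both receptor genes, all 3 phosphotransfer genes and 4 of 5 type-B response regulators fell, while 4 of 5 type-A response regulators rose. Gibberellin receptor genes fell too, and both gibberellin 20 oxidase genes rose. Over all members, 14 rose and 32 fell. At least 2-fold changes were 8 rises and 17 falls among the 46 members, or 3 and 9 among the gibberellin genes and 5 and 8 among the cytokinin genes. Over all listed genes 16.6% rose and 23% fell at least 2-fold per the authors' deposited table. The median log2 fold change was -1.07 for gibberellin genes and -0.58 for cytokinin genes, against 0.16 for all listed genes per the authors' deposited table.

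**Figure D1:**
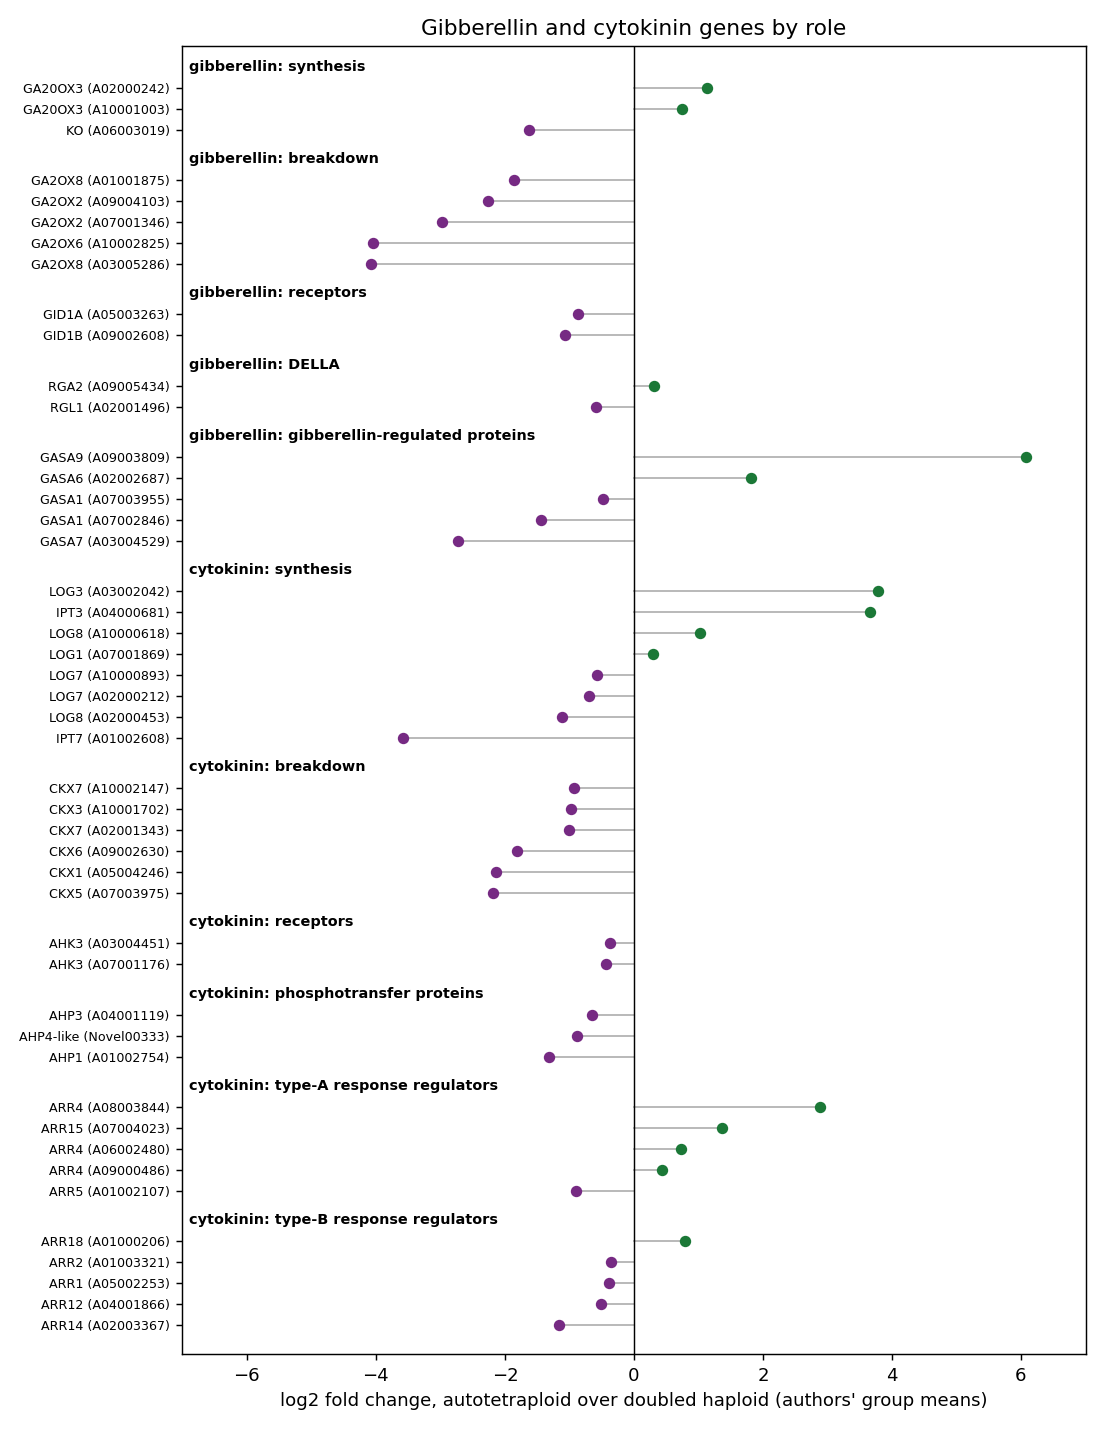
The log2 fold change of each of the 46 genes (horizontal axis, autotetraploid over doubled haploid, from the authors' group means), grouped by role, with rises in green and falls in purple. The 5 gibberellin breakdown genes and the 6 cytokinin breakdown genes all lie left of 0, and the largest value is the 6.08 of GASA9.

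The synthesis of gibberellin was represented by 3 genes, which did not share a direction. The gene for ent-kaurene oxidase (KO, evm.TU.BraA06003019), an early enzyme of the pathway, fell from 989 in doubled haploid to 321 in autotetraploid leaves per the authors' deposited table, with a log2 fold change of -1.62 (authors' adjusted p = 1.64e-60). Gibberellin 20 oxidases make the direct precursors of active gibberellins, and both listed genes matched GA20OX3. The less abundant copy (evm.TU.BraA02000242) had 103, 122 and 152 normalised reads in the doubled haploid libraries, and its autotetraploid mean of 275 per the authors' deposited table lay above all 3 (log2 fold change 1.13, authors' adjusted p = 4.71e-10). The more abundant copy (evm.TU.BraA10001003) rose from 1954 to 3284 per the authors' deposited table, with a log2 fold change of 0.75 (authors' adjusted p = 4.44e-26). Summed over these copies, GA20OX3 reads were 1.71-fold higher in autotetraploid leaves.

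Gibberellin 2-beta-dioxygenases inactivate gibberellins and their precursors, and their genes showed the deepest falls of any role. Most of their reads came from GA2OX6 (evm.TU.BraA10002825), which fell from 2197 to 134 per the authors' deposited table, 16.4-fold lower, with an adjusted p deposited as 0. This was the 117th largest fall among the 5126 listed falls whose higher group mean was 100 or more and whose lower one was above 0. The first GA2OX2 gene (evm.TU.BraA07001346) had 164, 131 and 143 reads in the doubled haploid libraries and 25.7, 18.1 and 11.9 in the autotetraploid ones. Every doubled haploid library thus held at least 5 times the reads of any autotetraploid library, and the log2 fold change was -2.98 per the authors' deposited table. The second GA2OX2 gene (evm.TU.BraA09004103) had 47.5, 46.2 and 25.1 reads in doubled haploid and 5.93, 9.07 and 9.72 in autotetraploid libraries, with a log2 fold change of -2.26 per the authors' deposited table. Its libraries did not overlap, although the lowest doubled haploid library stood well below the other two.

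Both GA2OX8 genes had few reads. The gene evm.TU.BraA01001875 had 8.07, 16.6 and 11.99 normalised reads in doubled haploid and 4.94, 3.02 and 2.16 in autotetraploid libraries (authors' deposited table, adjusted p = 0.0406). The gene evm.TU.BraA03005286 had 5.38, 7.40 and 5.45 against 0, 0 and 1.08, so that a single read stood in the autotetraploid group. The 16.9-fold fall of its means per the authors' deposited table therefore had a 95% counting interval of 2.68 to 701 (adjusted p = 0.0228). Without either of the autotetraploid libraries at 0 its fold was 11.2, and without the library that held the read the autotetraploid mean was 0. Summed over the 5 genes, breakdown reads fell from 2401 to 164 per the authors' deposited table.

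Receptors and DELLA proteins carry the gibberellin signal. The receptor genes GID1A (evm.TU.BraA05003263) and GID1B (evm.TU.BraA09002608) fell from 587 to 323 and from 545 to 259 per the authors' deposited table, with log2 fold changes of -0.86 and -1.07 (authors' adjusted p = 8.34e-15 and 1.04e-20). The DELLA gene RGA2 (evm.TU.BraA09005434), whose best hit is a protein of Brassica rapa itself, rose from 1654 to 2062 per the authors' deposited table, with a log2 fold change of 0.32 (authors' adjusted p = 4.92e-05). The median log2 fold change of listed genes with a mean of 500 or more in the higher group was 0.24. The rise of RGA2 is close to this median, and relative to it 0.07 remained. This median is that of genes which had passed the authors' test, and not of all expressed genes. The DELLA gene RGL1 (evm.TU.BraA02001496) had 151, 127 and 149 reads in doubled haploid and 92.9, 90.7 and 100.4 in autotetraploid libraries, and the groups did not overlap (log2 fold change -0.59 and adjusted p = 0.00477 per the authors' deposited table).

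Gibberellin-regulated proteins (GASA) are small cysteine-rich secreted proteins named for their response to the hormone, and theirs was the widest range of any role. GASA9 (evm.TU.BraA09003809) had 17.03, 11.1 and 17.4 reads in the doubled haploid libraries and an autotetraploid mean, 1026 per the authors' deposited table. This 67.5-fold rise (log2 fold change 6.08, authors' adjusted p = 1.39e-206) ranked 4th among the 5507 listed rises whose higher group mean was 100 or more and whose lower one was above 0. The autotetraploid reads of GASA9 could not be split by library, so how evenly its rise was shared among the 3 is unknown.

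The other GASA genes moved less. GASA6 (evm.TU.BraA02002687) had 8.07, 5.55 and 9.81 reads in doubled haploid and 21.7, 29.2 and 31.3 in autotetraploid libraries, without overlap, and a log2 fold change of 1.81 per the authors' deposited table. Its protein match was weak, with an e-value of 2.11e-14 per the authors' deposited table. GASA7 (evm.TU.BraA03004529) had 13.4, 12.02 and 15.3 against 0, 5.04 and 1.08 reads, and its 6.65-fold fall per the authors' deposited table became 25.1-fold without the autotetraploid library that held most of its reads. The GASA1 genes both fell, evm.TU.BraA07002846 from 138, 133 and 136 to 65.2, 45.4 and 40.0 reads and the more abundant evm.TU.BraA07003955 from a mean of 2124 to 1518 per the authors' deposited table. Of the role, then, 2 genes rose and 3 fell, and its summed reads went from 2297 to 2624 per the authors' deposited table because GASA9 outweighed the rest.

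**Figure D2:**
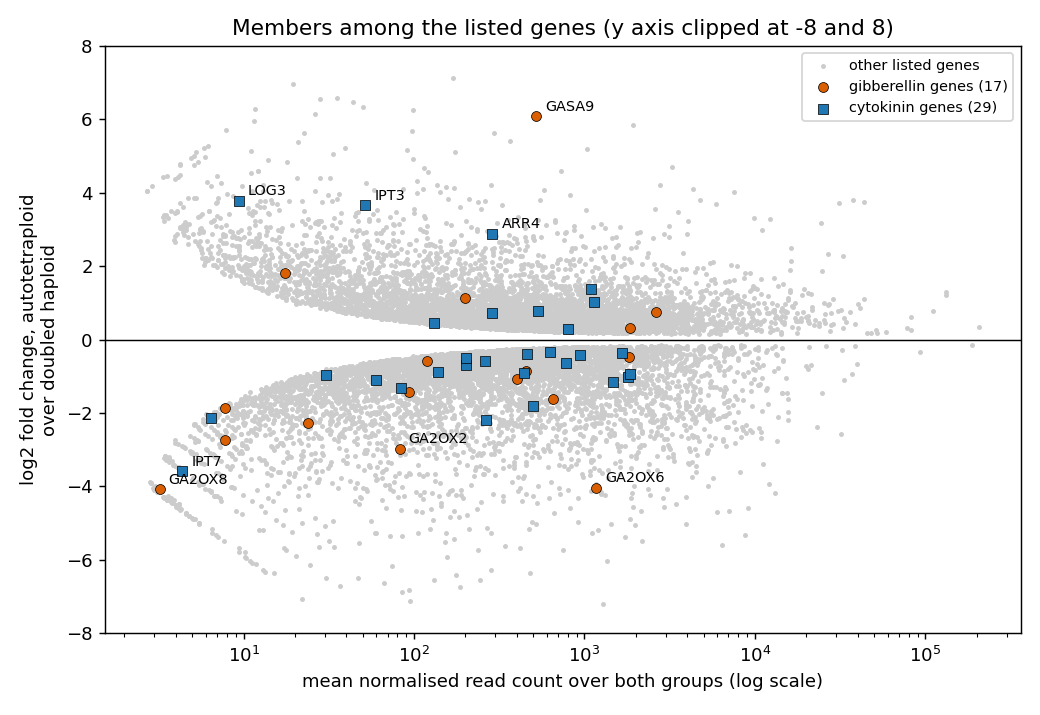
Mean normalised read count over both groups (horizontal axis, log scale) against the log2 fold change (vertical axis) for the listed genes with means above 0 in both groups, with gibberellin genes as circles and cytokinin genes as squares. Small changes appear only at high counts, since genes that missed the authors' threshold are not listed, and GASA9 at 6.08 and GA2OX6 at -4.04 stand far from 0 for their level.

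Cytokinin synthesis held 4 rises and 4 falls. IPT3 (evm.TU.BraA04000681) encodes a plastid isopentenyltransferase, the kind of enzyme that takes the first step of the pathway. It had 11.7, 5.55 and 5.45 reads in doubled haploid and 86.9, 124 and 76.7 in autotetraploid libraries. The lowest autotetraploid library exceeded the highest doubled haploid library by a wide margin, and the rise of the means was 12.7-fold per the authors' deposited table (95% counting interval 8.36 to 20.2, authors' adjusted p = 5.26e-13). On the scale of log2(count + 1), limma gave it a change of 3.55 with a standard error of 0.32. IPT7 (evm.TU.BraA01002608), a mitochondrial member of the same family, went the other way, with 8.96, 6.47 and 8.72 against 0, 2.02 and 0 reads. Its 11.98-fold fall per the authors' deposited table rested on 2 autotetraploid reads in 1 library (95% counting interval 2.99 to 104, adjusted p = 0.0109). Without either of the autotetraploid libraries at 0 its fold was 7.98, and without the library that held the reads the autotetraploid mean was 0.

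LOG enzymes turn cytokinin ribotides into active cytokinin, and 6 of their genes were listed. LOG3 (evm.TU.BraA03002042) was barely detected in the doubled haploid libraries, at 1.79, 0.925 and 1.09 reads, and had 11.9, 20.2 and 20.5 in the autotetraploid ones. The rise of 13.8-fold per the authors' deposited table had a 95% counting interval of 5.07 to 52.6 (adjusted p = 1.51e-05). The most abundant gene, a LOG8 copy (evm.TU.BraA10000618), rose from 748 to 1516 per the authors' deposited table (authors' adjusted p = 2.42e-21), while the other LOG8 copy (evm.TU.BraA02000453) fell, from 85.1, 95.2 and 66.5 to 38.5, 40.3 and 35.6 reads. This was the only protein name shared by several members whose genes moved in opposite directions.

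The remaining LOG genes changed by less than 2-fold. LOG1 (evm.TU.BraA07001869) had 721, 773 and 669 reads in the doubled haploid libraries and an autotetraploid mean of 887 per the authors' deposited table. Its log2 fold change of 0.30 left 0.06 relative to the median of listed genes with a mean of 500 or more in the higher group. The LOG7 genes fell, from 236, 274 and 239 reads to a mean of 155 (evm.TU.BraA02000212) and from 287, 344 and 306 reads to a mean of 210 (evm.TU.BraA10000893) per the authors' deposited table. Both autotetraploid means lay below every doubled haploid library. Their log2 fold changes were -0.69 and -0.58 per the authors' deposited table, and -0.93 and -0.82 relative to that median.

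**Figure D3:**
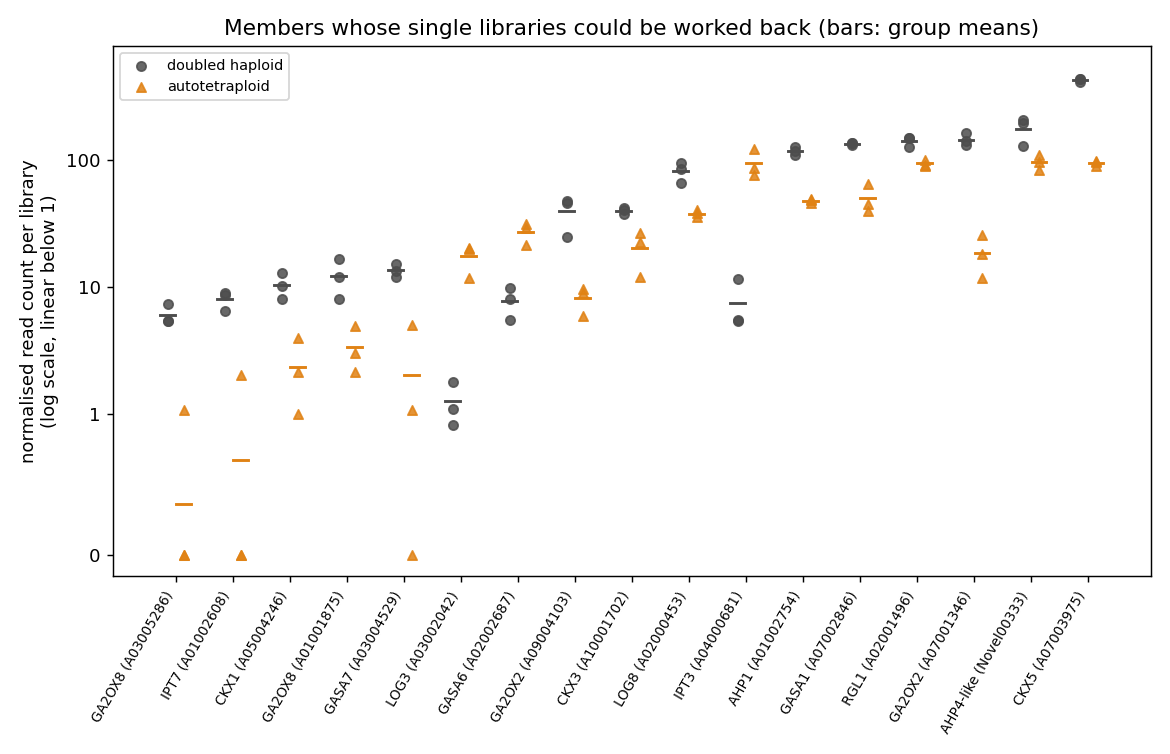
Normalised read count per library (vertical axis, log scale, linear below 1) for the 17 members whose reads could be worked back in both groups, with doubled haploid libraries as circles, autotetraploid libraries as triangles and group means as bars. In none of the 17 genes do the groups overlap, and LOG3, GASA6 and IPT3 are the 3 genes with higher autotetraploid values.

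Cytokinin dehydrogenases remove the side chain of the hormone, and all 6 listed genes fell. CKX5 (evm.TU.BraA07003975) had 443, 419 and 441 reads in doubled haploid and 90.9, 98.8 and 97.2 in autotetraploid libraries. The spread within each group was small beside the 4.54-fold difference per the authors' deposited table (95% counting interval 3.99 to 5.18, authors' adjusted p = 2.69e-53). CKX6 (evm.TU.BraA09002630) had 773, 774 and 795 reads in the doubled haploid libraries and an autotetraploid mean of 223 per the authors' deposited table, with a log2 fold change of -1.81 (authors' adjusted p = 1.28e-61). The 2 genes matching CKX7, a dehydrogenase of the cytosol in Arabidopsis, carried most of the reads of the family and fell by nearly the same amount, from 2421 to 1206 (evm.TU.BraA02001343) and from 2431 to 1272 (evm.TU.BraA10002147) per the authors' deposited table.

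Both weaker CKX genes also had non-overlapping libraries. CKX3 (evm.TU.BraA10001702) had 37.6, 40.7 and 42.5 reads in doubled haploid and 26.7, 12.1 and 22.7 in autotetraploid libraries (authors' deposited table, adjusted p = 0.0194). CKX1 (evm.TU.BraA05004246) had 8.07, 10.2 and 13.1 against 3.95, 1.01 and 2.16 reads (authors' deposited table, adjusted p = 0.0390). Summed over the 6 genes, CKX reads fell from 6118 to 2819 per the authors' deposited table, and synthesis reads rose from 2130 to 2920 over the 8 IPT and LOG genes. These sums are not corrected for gene length and follow the most abundant genes.

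Genes for cytokinin receptors and phosphotransfer proteins were lower in autotetraploid leaves, 5 of 5 listed. Both receptor genes matched histidine kinase AHK3 and fell by small amounts, from 1877 to 1456 (evm.TU.BraA03004451, log2 fold change -0.37) and from 1074 to 799 (evm.TU.BraA07001176, log2 fold change -0.43) per the authors' deposited table. Relative to the median of listed genes with a mean of 500 or more in the higher group, the receptor genes were at -0.61 and -0.67. Phosphotransfer proteins pass the phosphate from the receptors to the response regulators. Of their genes AHP1 (evm.TU.BraA01002754) had 118, 111 and 129 reads in doubled haploid and 48.4, 49.4 and 46.4 in autotetraploid libraries, a log2 fold change of -1.31 per the authors' deposited table. AHP3 (evm.TU.BraA04001119) had 916, 963 and 964 reads in the doubled haploid libraries and an autotetraploid mean of 604 per the authors' deposited table. A gene like AHP4 (Novel00333) had 129, 209 and 196 against 96.8, 83.7 and 110 reads (authors' deposited table, adjusted p = 0.00568). Its lowest doubled haploid library stood close to the highest autotetraploid one, the narrowest gap, in ratio, of the 17 genes with reads for every library.

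Type-A response regulators are themselves induced by cytokinin and hold its signal back, and they were mostly higher in autotetraploid leaves. All 3 genes matching ARR4 rose, to very different degrees. The gene evm.TU.BraA08003844 had 54.7, 83.2 and 68.7 reads in the doubled haploid libraries and an autotetraploid mean of 508 per the authors' deposited table, 7.38-fold higher (authors' adjusted p = 1.47e-89). The genes evm.TU.BraA06002480 and evm.TU.BraA09000486 had log2 fold changes of 0.73 and 0.44 per the authors' deposited table. Relative to the median of listed genes with a mean of 500 or more in the higher group, 0.48 and 0.20 remained. The first of the ARR4 genes was thus the weakest in doubled haploid and the strongest in autotetraploid leaves, by read counts not corrected for length. ARR15 (evm.TU.BraA07004023) had 622, 607 and 611 reads in the doubled haploid libraries against an autotetraploid mean of 1585 per the authors' deposited table, with a log2 fold change of 1.37 (authors' adjusted p = 3.87e-39). ARR5 (evm.TU.BraA01002107) fell, from 566, 595 and 572 reads to a mean of 310 per the authors' deposited table (log2 fold change -0.90, authors' adjusted p = 5.76e-16).

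Type-B response regulators activate cytokinin target genes, and 4 of 5 fell. ARR14 (evm.TU.BraA02003367) fell from 2022 to 908 per the authors' deposited table, with a log2 fold change of -1.15 (authors' adjusted p = 1.37e-48). ARR1 (evm.TU.BraA05002253), ARR2 (evm.TU.BraA01003321) and ARR12 (evm.TU.BraA04001866) fell by less, with log2 fold changes of -0.38, -0.35 and -0.51 per the authors' deposited table. For ARR1 the doubled haploid libraries ranged from 447 to 565 reads, against an autotetraploid mean of 398 per the authors' deposited table. The exception was a gene with ARR18 as best hit (evm.TU.BraA01000206), which rose from 384, 386 and 399 reads to a mean of 673 per the authors' deposited table. Its match was weak, at an e-value of 1.17e-11 per the authors' deposited table, so its class is uncertain. In summed reads the type-A genes rose from 1587 to 2912 and the type-B genes fell from 3869 to 2697 per the authors' deposited table.

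**Figure D4:**
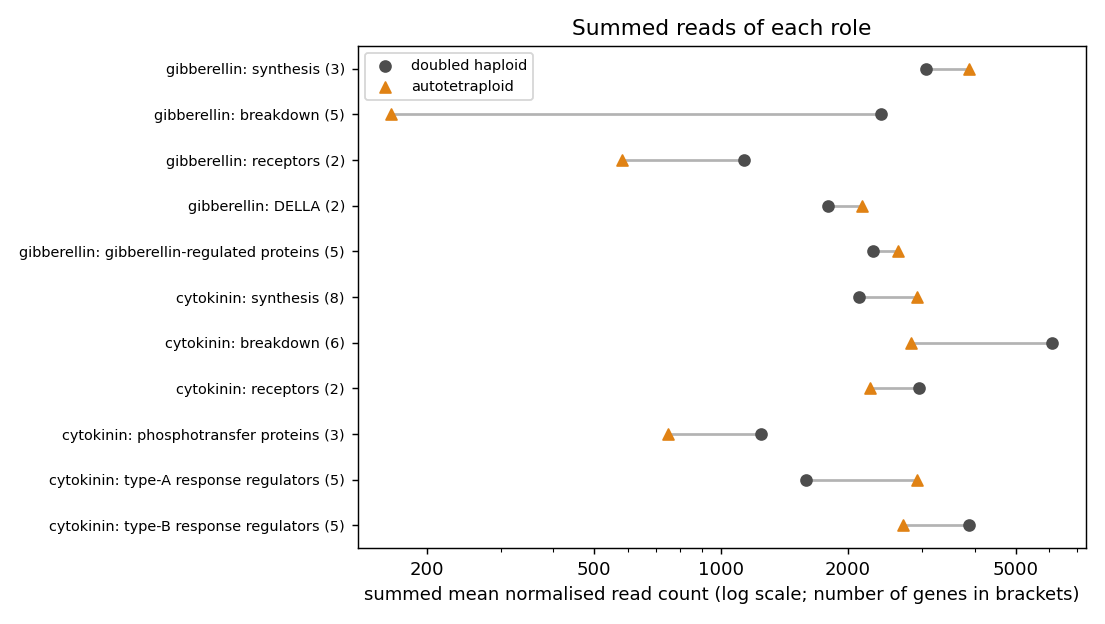
Summed mean normalised read count of the genes of each role (horizontal axis, log scale) in doubled haploid (circles) and autotetraploid leaves (triangles), from the authors' group means. The widest gap is that of gibberellin breakdown, from 2401 to 164, and type-A and type-B response regulators move in opposite directions.

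Brassica rapa descends from an ancestor with a triplicated genome and often keeps several copies of an Arabidopsis gene. Among the members 9 protein names were shared by 19 genes, and in 8 of the 9 the copies moved in 1 direction. The same share over all listed genes with a shared protein name was not computed. Copies that missed the authors' threshold are not listed, so this count is no result about the members. The size could still differ widely between copies, as for ARR4, with log2 fold changes of 0.44 to 2.88, and GASA1, with -1.44 to -0.48 per the authors' deposited table. The CKX7 copies, at -1.01 and -0.93, and the AHK3 copies, at -0.43 and -0.37, were close together per the authors' deposited table. Near-identical copies may share reads, and gene sequences to check this were not used here.

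**Figure D5:**
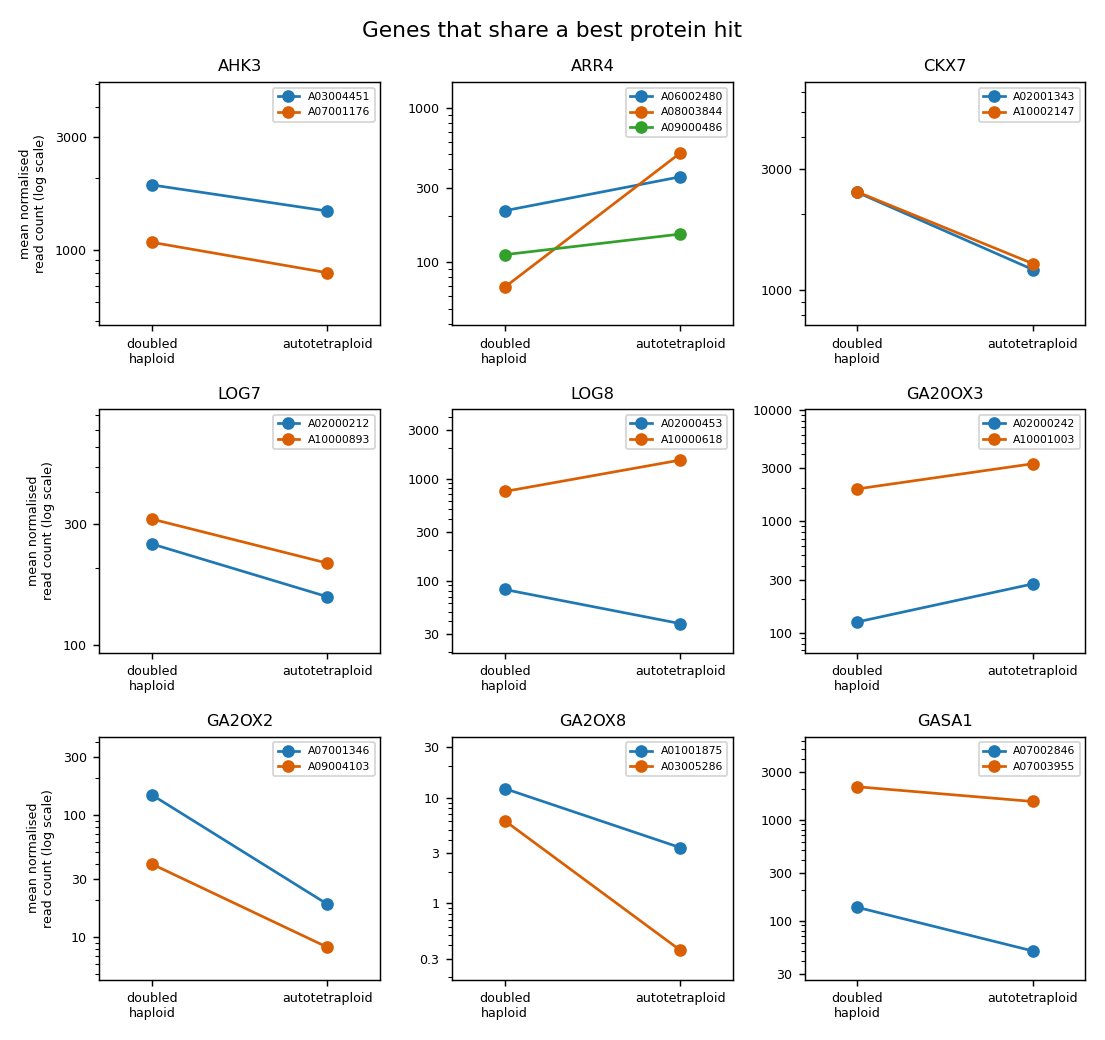
Mean normalised read count (vertical axes, log scale, each panel with its own range) in doubled haploid and autotetraploid leaves for the 9 protein names shared by several members, 1 line per gene, from the authors' group means. Lines run in parallel directions in 8 panels, and in that of LOG8 they part, with 1 gene rising from 748 to 1516 and the other falling from 82.3 to 38.2.

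Reads could be worked back for every library of both groups in 17 members, of which 3 rose and 14 fell, and in none did the groups overlap. The highest autotetraploid mean among the 17 was 96.9, since higher autotetraploid means often had more than 1 solution. Members with more autotetraploid reads were thus left out, and the split of 3 and 14 is no result about direction. The lack of overlap says little about the members, because 99.2% of all 3712 listed genes with such reads showed no overlap either. For 15 further members only the doubled haploid libraries could be worked back, and in all 15 the autotetraploid mean of the authors' deposited table lay outside their range. The share of all listed genes for which this holds was not computed. Since every listed gene had passed the authors' test, this count is no result about the members either. In the remaining 14 the reads of neither group could be split by library. With limma on log2(count + 1), 16 of the 17 entered the fit, CKX5 being above the limit of 300 set on the mean, and all passed at an adjusted p under 0.05, as did 100% of the genes fitted, which had been selected by the authors' test on the same libraries.

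Other genes of both pathways were taken from lists of protein names. Of 7 genes for PIF factors, transcription factors of light-regulated growth that DELLA proteins hold inactive, 1 rose and 6 fell. The PIF4 genes had log2 fold changes of -1.40 (evm.TU.BraA03002369) and -1.35 (evm.TU.BraA04003094) per the authors' deposited table. Genes for SNEEZY, SPINDLY and SCL3, which tune gibberellin signalling, were split into 2 rises and 2 falls. The F-box gene SNE (evm.TU.BraA09001705) fell from 24.7 to 2.38 and a SPINDLY gene (evm.TU.BraA05002750) from 575 to 450 per the authors' deposited table. Geranylgeranyl diphosphate synthases, which supply precursors to gibberellins, chlorophyll and carotenoids alike, were also split, with 2 rises and 2 falls. The most abundant of them (evm.TU.BraA01000215) rose from 1006 to 1775 and another (evm.TU.BraA07000357) fell from 182 to 87.1 per the authors' deposited table. A gene for ent-kaurenoic acid oxidase 2 (evm.TU.BraA05000400), the enzyme after ent-kaurene oxidase, was added after its values had been seen, and fell from 307 to 173 per the authors' deposited table.

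On the cytokinin side, carriers were the largest list. Of 18 genes for purine permeases, nucleoside transporters and ABCG14, families with members that carry cytokinins or related purines, 6 rose and 12 fell. Purine permease genes with the best hits 14 (evm.TU.BraA08003221) and 21 (evm.TU.BraA03005133) fell from 9362 to 1108 and from 2781 to 593 per the authors' deposited table. Further genes with the best hit 14 did not share a direction. Of these, evm.TU.BraA06001187 rose from 85.9 to 292 per the authors' deposited table. Falls were from 177 to 14.1 for evm.TU.BraA06001190 and from 1084 to 801 for evm.TU.BraA06001189 per the authors' deposited table. Of 7 genes for adenine phosphoribosyltransferases and adenosine kinases, which convert cytokinin bases and ribosides to ribotides, 4 rose and 3 fell, with an adenosine kinase 2 gene (evm.TU.BraA10001280) at 1.10 and an adenine phosphoribosyltransferase 2 gene (evm.TU.BraA07002624) at -1.65 on the log2 scale per the authors' deposited table. Both cytokinin response factor genes matched CRF4 and parted. The gene evm.TU.BraA08001930 fell from 294 to 121 per the authors' deposited table (log2 fold change -1.28). The gene evm.TU.BraA03005764 had few reads and rose from 4.24 to 15.9 per the authors' deposited table (log2 fold change 1.90). Of 3 glycosyltransferase genes from families with members that conjugate cytokinins, 2 rose and 1 fell. UGT73C5 (evm.TU.BraA05003544) was at 0.39 and UGT76C1 (evm.TU.BraA10000853) at -0.60 on the log2 scale per the authors' deposited table.

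Other features of the leaves moved with ploidy beside these genes. Among senescence genes 3 of 6 rose, all of them SAG12 genes, with log2 fold changes of 0.85, 1.85 and 2.52 per the authors' deposited table. The sum of the 6 fell from 8225 to 1764, mostly through 1 further SAG12 gene (evm.TU.BraA06000198), which went from 4804 to 4.86 per the authors' deposited table. In the phloem list both genes fell, from a sum of 6576 to 3071, with SUC2, the sucrose carrier of companion cells (evm.TU.BraA09003807), at a log2 fold change of -1.13 per the authors' deposited table. Of 17 MADS-box genes of the flower list 4 rose and 13 fell, their sum going from 3436 to 2706 per the authors' deposited table. The list went by protein names, and an Agamous-like name does not by itself mark a gene of flowers. AGL80 (evm.TU.BraA05003620) was listed at 0 in autotetraploid leaves, but its doubled haploid mean was only 6.23 per the authors' deposited table. The root list held 2 genes for root meristem growth factor 9, which both rose, from a sum of 1475 to 3773 per the authors' deposited table. The guard cell list held 1 gene, which fell, and the xylem list no gene. The meristem list held only genes for WUSCHEL-related homeobox 13, with 1 rise and 1 fall, and none for the other meristem proteins searched. Of the 6 members with the chromosome code A01 in their identifiers 5 fell, as did 926 of the 1284 listed A01 genes. Without A01 genes, 5 gibberellin genes rose and 11 fell, and 8 cytokinin genes rose and 16 fell. The part of leaf age or of other cell types in the changes of the hormone genes was not tested.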

How the data were processed

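Members, role lists and marker lists were chosen with earlier results of these data known. Per the submitters' processing notes, reads were handled with DESeq 1.18.0, HTSeq 0.6.1, TopHat2 2.0.12 and Bowtie2 2.2.3. Which genome build and which annotation served is not given in the sources used here. No strand marking is stated for the library kit, per the labels' protocols. Although its label speaks of FPKM, the deposited table holds 1 signal value per gene and group, a mean of size-factor-normalised read counts per the file headers and the values. The deposited log2 column equals the log2 ratio of these means within 5.0e-05, and the deposited p-value columns, raw and adjusted, come from the test the authors ran. Only genes with an adjusted p under 0.05 are listed, which inflates the changes of weakly expressed genes. The ratio of adjusted p to p gave the number of genes tested.

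limma on values per library had been the intended main test. Only group means are given, so the calls made by the authors were used instead and roles were described by counts. Each mean was solved for whole reads in 3 libraries, from steps of 1 read. Below a mean of 300, 6138 of 6138 doubled haploid values above 0 had exactly 1 solution. In the autotetraploid group 3842 of 6222 had 1 and 2380 had more, because its steps nearly coincide in some combinations above a mean of about 100, and those were not used. Members were also tried up to a mean of 1000 and kept where 1 solution existed; of 150 doubled haploid values from 300 to 1000, 0 had no solution, 113 had 1 and 37 had more. As a check with 1 wrong step, off by at most 1%, solutions were found for 1.6% and 1.8% of 500 values under 100 per group, but for 34% of the 150 values from 300 to 1000, where a solution is thus a weaker check of the steps. On simulated means 100% of 800 under 300 were recovered, and from 300 to 1000 all 179 with 1 solution, of 200, were right. The simulation under 300 used steps of 1 read that belong to neither group, and the other used the doubled haploid steps. Neither therefore tests the autotetraploid steps, which left 2380 values with more than 1 solution. limma 3.58.1 in R 4.3.3 was fitted to 3712 genes with 1 solution in each group. In simulation it called 94% of 200 genes changed 4-fold among 3712 genes. The simulation assumed a spread between libraries and left the other genes unchanged, whereas all fitted genes had passed the authors' test. It therefore does not measure how well limma finds changes in these data. Counting intervals are exact conditional binomial ones and cover counting error only. Nothing says that libraries came from separate plants beyond the word replicate, so p-values measure the spread between these libraries. The number of reads sequenced for each library is not given in the sources used here; only size factors could be derived. Every member is named. Of the other pathway lists the 2 genes with the smallest adjusted p are named, and of the carriers also the further purine permease 14 genes. Genes named from the marker lists were chosen after their values were seen. Other software was matplotlib 3.10.9, SciPy 1.17.1, NumPy 2.4.6, pandas 2.3.3 and Python 3.11.15. Alternatives included stricter limits, subsets of genes, scaling, pseudocounts and left-out libraries.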

Additional observations from a re-analysis of the deposited data

How the results depend on the processing

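The share of members that rose was 29.4% for gibberellin genes (95% exact binomial interval 10.3 to 56) and 31% for cytokinin genes (15.3 to 50.8). These intervals treat genes as independent, although several share a protein name and all were measured in the same libraries. They do not measure the spread between libraries or plants. Stricter limits, subsets of genes and other scalings were tried, and a limit on the e-value was added after the data were seen. The share that rose then ran from 25% to 38.5% for gibberellin and from 29.6% to 38.5% for cytokinin genes. None of the 329 log2 fold changes of the 46 members computed with pseudocounts, other scalings or a library left out changed sign. This was fixed in advance and says nothing about stability. An equal pseudocount keeps the sign of a ratio. Rescaling to equal sums lowers every log2 fold change by 0.061, and centring on listed genes with a mean of at least 500 by 0.24. Both are below the smallest rise, 0.30 for LOG1. Leaving out a library cannot reverse a gene whose libraries all lie on 1 side of the other group's mean. Left-out values with an autotetraploid mean of 0, for IPT7 and a GA2OX8 gene, were not counted. With a library left out, 3 members moved over 1.5-fold, IPT7, GASA7 and the GA2OX8 gene evm.TU.BraA03005286, each with at most 6 autotetraploid reads. limma called all 16 members under every setting run, but it also called 3682 to 3708 of all 3712 genes with a library left out, so that this count says nothing about the stability of the members. No paired analysis was possible because the recovered libraries carry no replicate number. Count tests with edgeR and DESeq2 were not run, since the table holds group means. Depth limits most the falls of both GA2OX8 genes, IPT7, CKX1 and GASA7 and the rise of LOG3, each with at most 10 reads in the lower group.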
